A study of Mus musculus with 50 samples.

Results

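Regulatory T (Treg) cells sorted from visceral fat, the adipose tissue of the abdominal cavity (VAT), were compared between libraries named DT and libraries named PBS. The 8 libraries were taken by their names in the count table, 4 VAT libraries named DT (replicates 5 to 8) and 4 named PBS (replicates 1 to 4), out of 50 in the series. The series asks how Treg cells made around birth populate tissues. All animals were male and of a B6.129(Cg) strain with the allele Foxp3tm3(HBEGF/GFP)Ayr in the labels, in which the Foxp3 locus drives green fluorescent protein and the human diphtheria toxin (DT) receptor, and were sampled at 20 weeks of age. Toxin was injected from 12 weeks of age on 3 days in a row to remove existing Treg cells, and the mice rested for 8 to 9 weeks so that Treg cells could return. The library names call the control arm PBS, whereas the series text describes littermates without the receptor that also received toxin. The genotype entry is WT in both arms, so the arms are called DT-labelled and PBS-labelled here, and the extent of the depletion cannot be told from the sources. Each library was made from 500 to 1000 double-sorted CD4+ Foxp3-GFP+ cells. In the allele named, the receptor and the green fluorescent protein come together. Littermates without the receptor are thus hard to square with a GFP+ sort, and the sources do not settle this. Whether each library of an arm is from another mouse is not stated, so the p-values cover only library-to-library spread, and part of that may be technical.

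Treg cells restrain other immune cells and depend on the transcription factor Foxp3. Those of visceral fat carry a program of their own, known to involve the lipid-sensing nuclear receptor PPARγ (Pparg), the IL-33 receptor ST2 (Il1rl1) and the repair factor amphiregulin (Areg), and they are known to influence the metabolism of the fat. Toxin given to mice whose Foxp3-expressing cells carry the receptor kills those cells, and the niche is then refilled from survivors or from newly made cells.

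The VAT libraries held 3706591 to 5663805 counts, within the 2521078 to 6981037 of the series. Levels are given as CPM, read counts scaled to a common library size, after correction by the trimmed mean of M values (TMM), and differences as log2 fold change of DT over PBS ± SE. The sorted cells carried their defining markers in all 8 libraries: Foxp3 between 318.3 and 484.1 CPM, Cd4 between 613.6 and 745.2 CPM and Cd3e between 557.9 and 635.8 CPM. Across genes, the log2 levels of pairs of libraries correlated at 0.935 to 0.955 within the PBS arm, 0.936 to 0.954 within the DT arm and 0.924 to 0.951 between arms, a description with no test. DT-labelled replicate 7 stood apart. Its fibroblast and preadipocyte markers summed to 1180 CPM (44.1 to 98.02 in the other 7 libraries), its macrophage markers to 138.1 CPM (12.4 to 26.2), and at equal depth it showed 25392 detected genes (19123 to 22311).

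The arms differed in few genes. Of 12067 genes tested, 15 (0.124%) passed an adjusted p of 0.05 in edgeR's quasi-likelihood test with Benjamini-Hochberg adjustment, 6 higher (0.0497%) and 9 lower (0.0746%) in the DT-labelled libraries. The arms did not overlap for any of the 15, which follows largely from choosing genes by a small p on the same values. Among all tested genes 571 (4.73%) had arms that did not overlap. At an unadjusted p under 0.05 there were 955 genes (7.91%), 453 higher and 502 lower. The median log2 fold change over all tested genes was 0.003. The number of calls depended on single libraries: it was 4, 1, 0 and 31 without PBS-labelled replicates 1, 2, 3 and 4, and 0, 1, 2 and 3 without DT-labelled replicates 5, 6, 7 and 8. Where edgeR called 0, 840 genes (without PBS-labelled replicate 3) and 793 genes (without DT-labelled replicate 5) had an unadjusted p under 0.05. DESeq2 called 92 genes, among them all 15, and limma voom called 7, all of them among the 15.

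**Figure D1:**
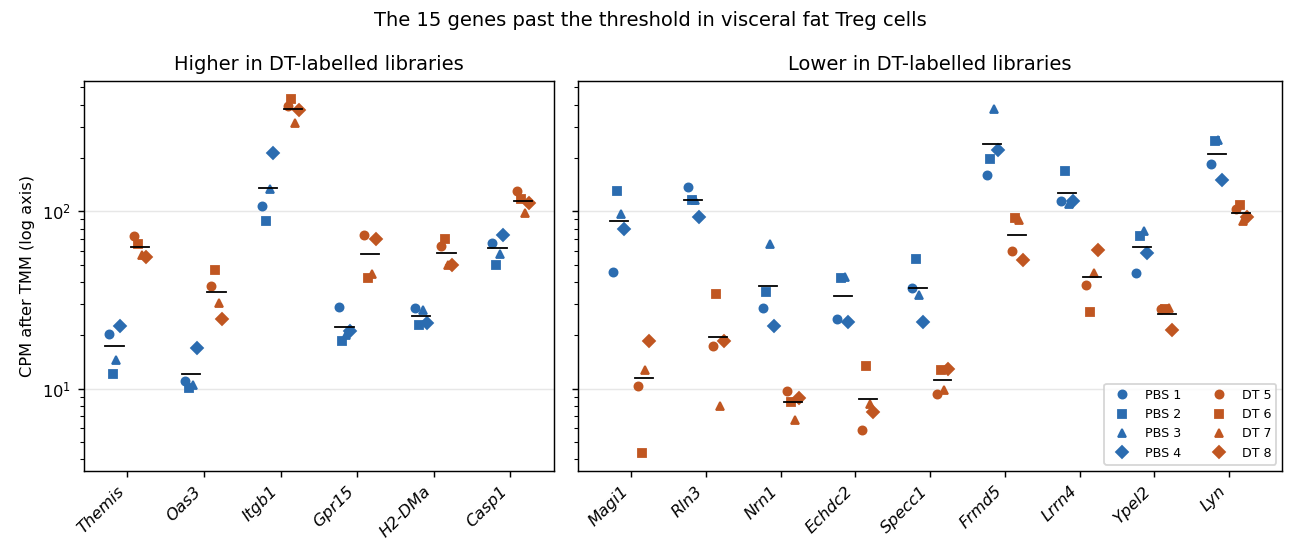
Level of the 15 genes past the threshold in each VAT Treg library, in CPM after TMM on a log axis, with PBS-labelled libraries in blue, DT-labelled libraries in orange and a black line at each arm's mean (n = 4 libraries per arm). The arms do not overlap for any of the 15 genes, and the largest fold change between arm means is that of Magi1.

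Among the genes that rose, Themis, an adaptor of T cell receptor signalling known from thymocyte selection, had the smallest adjusted p. Its level was 20.2, 12.2, 14.5 and 22.5 CPM in the PBS-labelled libraries and 72.8, 65.3, 56.8 and 55.5 CPM in the DT-labelled libraries. All 4 DT-labelled libraries were thus above the highest PBS-labelled one. The fold change was 3.64 (log2 1.86 ± 0.21, edgeR adjusted p = 0.0187).

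Itgb1 and Gpr15, receptors of adhesion and homing, also rose. Itgb1, the β1 integrin chain that pairs with several α chains to bind extracellular matrix and vascular ligands, measured 107.7, 87.8, 133.2 and 212.8 CPM under PBS and 392.7, 431.2, 313.2 and 373.1 CPM under DT. PBS-labelled replicate 4 was the nearest to the DT arm, and the fold change was 2.82 (log2 1.497 ± 0.23, edgeR adjusted p = 0.0404). Gpr15, a receptor known for guiding T cells to the gut, measured 28.9, 18.7, 20.0 and 21.1 CPM under PBS and 73.4, 42.3, 44.3 and 69.4 CPM under DT. The 4 PBS-labelled values were close together, the DT-labelled ones were spread over a wider range above them, and the fold change was 2.60 (log2 1.38 ± 0.23, edgeR adjusted p = 0.0478). Gpr15 overlaps the protein-coding gene Cpox on the opposite strand, and the strand setting of the counting was not stated. Reads may thus be shared between them, and DESeq2 called Cpox higher too (log2 1.28, DESeq2 adjusted p = 0.00401). The part of Cpox in the Gpr15 values was not tested.

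Of the 24 tested genes on the list of homing receptors, Itgb1 and Gpr15 were the members called, beside 0.0497% of all tested genes called higher. An unadjusted p under 0.05 was reached by 6 members in the higher and 2 in the lower direction, beside 3.75% and 4.16% of all genes. The list's median log2 fold change was 0.12. Itga4, the α4 chain that pairs with β1, had a mean of 415.5 ± 26.3 CPM (SD, n = 4) under PBS and 548.3 ± 64.3 CPM under DT, without overlap, and did not pass the threshold (edgeR adjusted p = 0.296). Gpr183, a receptor for oxysterols that positions lymphocytes, had 90.3 ± 20.2 and 129.7 ± 9.64 CPM (edgeR adjusted p = 0.351). The chemokine receptors Ccr1 and Ccr2 had lower estimates under DT, at log2 -1.11 ± 0.40 for Ccr1 (edgeR adjusted p = 0.497) and -0.50 for Ccr2, and their arms overlapped.

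Oas3, an interferon-induced enzyme that senses double-stranded RNA, measured 11.1, 10.1, 10.5 and 17.0 CPM under PBS and 37.9, 46.6, 30.5 and 24.7 CPM under DT. PBS-labelled replicate 4 was again the highest of its arm. The fold change was 2.90 (log2 1.54 ± 0.25, edgeR adjusted p = 0.0478). Casp1, the inflammasome protease that matures IL-1β and IL-18, measured 66.4, 49.9, 57.3 and 73.6 CPM under PBS and 130.9, 117.3, 97.7 and 111.9 CPM under DT. The lowest DT-labelled value lay above the highest PBS-labelled one, and the fold change was 1.87 (log2 0.90 ± 0.15, edgeR adjusted p = 0.0450).

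H2-DMa, a chain of the chaperone that loads peptides onto MHC class II molecules, measured 28.7, 22.9, 27.7 and 23.5 CPM under PBS and 63.4, 69.7, 50.2 and 49.8 CPM under DT. The fold change was 2.29 (log2 1.196 ± 0.17, edgeR adjusted p = 0.0404). H2-DMa overlaps the protein-coding gene Brd2 on the opposite strand, so reads may be shared, and the part of Brd2 in its values was not tested. H2-DMa was high in all 4 DT-labelled libraries, unlike the classical class II chains. H2-Ab1 measured 197.5 CPM and H2-Aa 96.6 CPM in DT-labelled replicate 7, against 6.54 to 17.5 CPM and 1.69 to 10.5 CPM in the other 3 DT-labelled libraries. All 7 tested class II genes had higher estimates under DT, 5 with an unadjusted p under 0.05, beside 3.75% of all genes in that direction. Their median log2 fold change was 1.196. Without DT-labelled replicate 7 that median was 0.26, and 1 gene had an unadjusted p under 0.05. Replicate 7 is the library with the high fibroblast and macrophage marker sums, whose part in the class II values was not tested.

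The 9 genes that fell included the largest fold changes. Magi1, a scaffold protein of cell junctions, measured 45.4, 130.6, 97.1 and 79.5 CPM under PBS and 10.3, 4.33, 12.7 and 18.6 CPM under DT. Its fold change was 7.56 in favour of PBS (log2 -2.92 ± 0.39, edgeR adjusted p = 0.0386), although the PBS-labelled libraries themselves were widely spread. Rln3, which encodes the peptide hormone relaxin-3, measured 136.9, 116.6, 115.9 and 93.5 CPM under PBS and 17.3, 34.4, 7.96 and 18.6 CPM under DT. The PBS-labelled values were close together and the highest DT-labelled one was well below them. The fold change was 5.82 in favour of PBS (log2 -2.54 ± 0.32, edgeR adjusted p = 0.0246).

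Nrn1, which encodes the membrane-anchored protein neuritin known from neurons and from anergic and regulatory T cells, measured 28.5, 35.1, 65.8 and 22.5 CPM under PBS and 9.73, 8.45, 6.64 and 8.86 CPM under DT. The 4 DT-labelled libraries lay in a narrow range below all PBS-labelled ones (log2 -2.15 ± 0.32, edgeR adjusted p = 0.0404). Nrn1 overlaps the protein-coding gene Fars2 on the opposite strand, and the part of Fars2 in its values was not tested. Frmd5, a FERM domain protein linked to cell adhesion, measured 160.4, 197.9, 377.5 and 221.1 CPM under PBS and 59.9, 92.1, 88.9 and 53.0 CPM under DT. Its fold change was 3.20 in favour of PBS (log2 -1.68 ± 0.27, edgeR adjusted p = 0.0450). A pair of processed pseudogenes lies inside this gene, one of them, Gm14021, on the same strand, so reads may be divided between them.

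Lyn, a Src-family kinase that can both start and inhibit signalling of immune receptors, measured 185.7, 250.8, 253.6 and 150.9 CPM under PBS and 103.3, 109.0, 87.8 and 93.3 CPM under DT. The DT-labelled libraries were tightly grouped below the lowest PBS-labelled value (log2 -1.08 ± 0.16, edgeR adjusted p = 0.0404). Lrrn4, a membrane protein with leucine-rich repeats that is also used as a mesothelial marker, measured 114.1, 169.7, 109.6 and 115.0 CPM under PBS and 38.5, 27.2, 45.1 and 60.8 CPM under DT (log2 -1.55 ± 0.23, edgeR adjusted p = 0.0404). Of the 9 other mesothelial markers on the list, Muc16 reached 9.71 CPM, Krt18 6.74 CPM and the other 7 at most 2.16 CPM in any VAT library.

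The other 3 genes that fell were Echdc2, which encodes a mitochondrial protein of the enoyl-CoA hydratase family, Specc1, which encodes a cytoskeletal coiled-coil protein, and Ypel2 of the yippee-like family. Echdc2 fell from 33.3 ± 10.3 CPM (SD, n = 4) to 8.71 ± 3.28 CPM (edgeR adjusted p = 0.0450). Specc1 fell from 37.0 ± 12.4 to 11.2 ± 1.89 CPM (edgeR adjusted p = 0.0404), and Ypel2 from 63.2 ± 14.6 to 26.6 ± 3.37 CPM (edgeR adjusted p = 0.0450). In DT-labelled replicate 7, 9 of the 15 genes lay within the range of the other 3 DT-labelled libraries. Any library of an arm would by chance lie inside that range about as often as outside. The count over all tested genes was not made, so the 9 do not tell whether replicate 7 was unusual for these genes.

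The promoters of 2 genes that rose held letters of an interferon-stimulated response element (ISRE), and are shown for that reason. The sequences are RefSeq promoters of build GRCm38.p6, from 250 bases before to 50 after the start site, on the minus strand, with ISRE and AP-1 letters in capitals. That of Oas3 is at chr5:120777610-120777909 and that of Gpr15 at chr16:58718823-58719122.
Oas3: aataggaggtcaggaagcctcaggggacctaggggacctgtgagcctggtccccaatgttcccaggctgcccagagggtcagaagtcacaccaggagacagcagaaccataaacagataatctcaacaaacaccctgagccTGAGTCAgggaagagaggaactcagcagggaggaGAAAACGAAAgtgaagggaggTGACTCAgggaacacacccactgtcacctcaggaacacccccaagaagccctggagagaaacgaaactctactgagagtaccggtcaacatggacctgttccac
Gpr15: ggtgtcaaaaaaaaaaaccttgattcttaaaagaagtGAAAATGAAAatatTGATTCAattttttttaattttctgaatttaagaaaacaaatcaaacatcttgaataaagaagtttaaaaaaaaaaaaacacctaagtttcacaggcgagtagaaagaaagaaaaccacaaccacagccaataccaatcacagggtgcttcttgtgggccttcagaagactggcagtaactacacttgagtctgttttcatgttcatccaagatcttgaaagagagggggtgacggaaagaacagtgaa
Searched on both strands were ISRE (TTTC and TTTC with 2 bases of any kind between), AP-1 (TGANTCA), CRE (TGACGTCA), GAS (TTCNNNGAA) and DR1 (AGGTCA and AGGTCA with 1 base between), the last being the kind of element that PPARγ binds. None of the matches overlapped another. In Oas3 the ISRE letters began 75 bases before the start site on the opposite strand, between AP-1 letters at 109 and 54 bases before it. In Gpr15 the ISRE letters began 213 and the AP-1 letters 199 bases before it. ISRE letters were thus in 2 of 6 promoters of genes that rose, in 0 of 7 matched promoters of genes that fell, and in 3.86% of the 8939 tested genes with a promoter. AP-1 letters were in 3 of the 6 (H2-DMa was the third), in 0 of the 7 and in 5.76% of the tested genes. No other motif of the 5 was found in the matched promoters of the 13 called genes, and matches of letters are a description, not binding sites.

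Interferon-response genes beyond Oas3 had higher estimates as a group without single calls. Of 27 tested list members, 26 had higher estimates under DT, beside 6102 of all 12067 tested genes. An unadjusted p under 0.05 was reached by 12 in the higher direction and 0 in the lower, against 3.75% and 4.16% of all genes. The median log2 fold change was 0.43. Irf7, the transcription factor that amplifies the type I interferon response, measured 39.4, 37.5, 36.7 and 49.9 CPM under PBS and 108.6, 84.1, 71.7 and 64.2 CPM under DT. The arms did not overlap, and Irf7 missed the threshold (log2 1.02 ± 0.18, edgeR adjusted p = 0.0646), while DESeq2 called it with an adjusted p of 0.000279. Ifi27l2a, another interferon-induced gene, had 317.0 ± 50.3 CPM under PBS and 424.7 ± 38.3 CPM under DT (edgeR adjusted p = 0.341).

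Rsad2 and Ifit3, antiviral effectors of the same response, were at low levels: Rsad2 at 0.394 to 5.81 CPM under PBS and 6.90 to 12.8 CPM under DT, Ifit3 at 0 to 5.32 and 6.33 to 13.0 CPM. Neither passed (edgeR adjusted p = 0.5004 and 0.522). PBS-labelled replicate 4 was the highest of its arm for 23 of the 27 members and PBS-labelled replicate 2 the lowest for 12. Such ranks were not counted over all tested genes, so they may not be particular to this list. Mx1 was the member with a lower estimate. Its highest value of the 8 libraries was in PBS-labelled replicate 2. Without PBS-labelled replicate 4 the count of members with an unadjusted p under 0.05 was 18, and without PBS-labelled replicate 2 it was 4. Over all genes and both directions, these fits had 1246 of 12435 and 672 of 12482 genes at that level. ISRE letters were found in 13 of the 19 matched promoters of the list, whose members are known for such elements.

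Genes of the visceral fat Treg program had mostly lower estimates. Of 24 tested members, 21 had lower estimates under DT, beside 5965 of all 12067 tested genes. An unadjusted p under 0.05 was reached by 10 in the lower and 0 in the higher direction, beside 4.16% and 3.75% of all genes. The median log2 fold change was -0.51. None was called by edgeR. Pparg measured 66.5, 105.8, 83.4 and 79.7 CPM under PBS and 36.4, 76.9, 50.7 and 11.6 CPM under DT. Its arms overlapped through DT-labelled replicate 6 and PBS-labelled replicate 1, and replicate 8 of the DT arm was far below the rest (log2 -0.91 ± 0.40, edgeR adjusted p = 0.614).

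**Figure D2:**
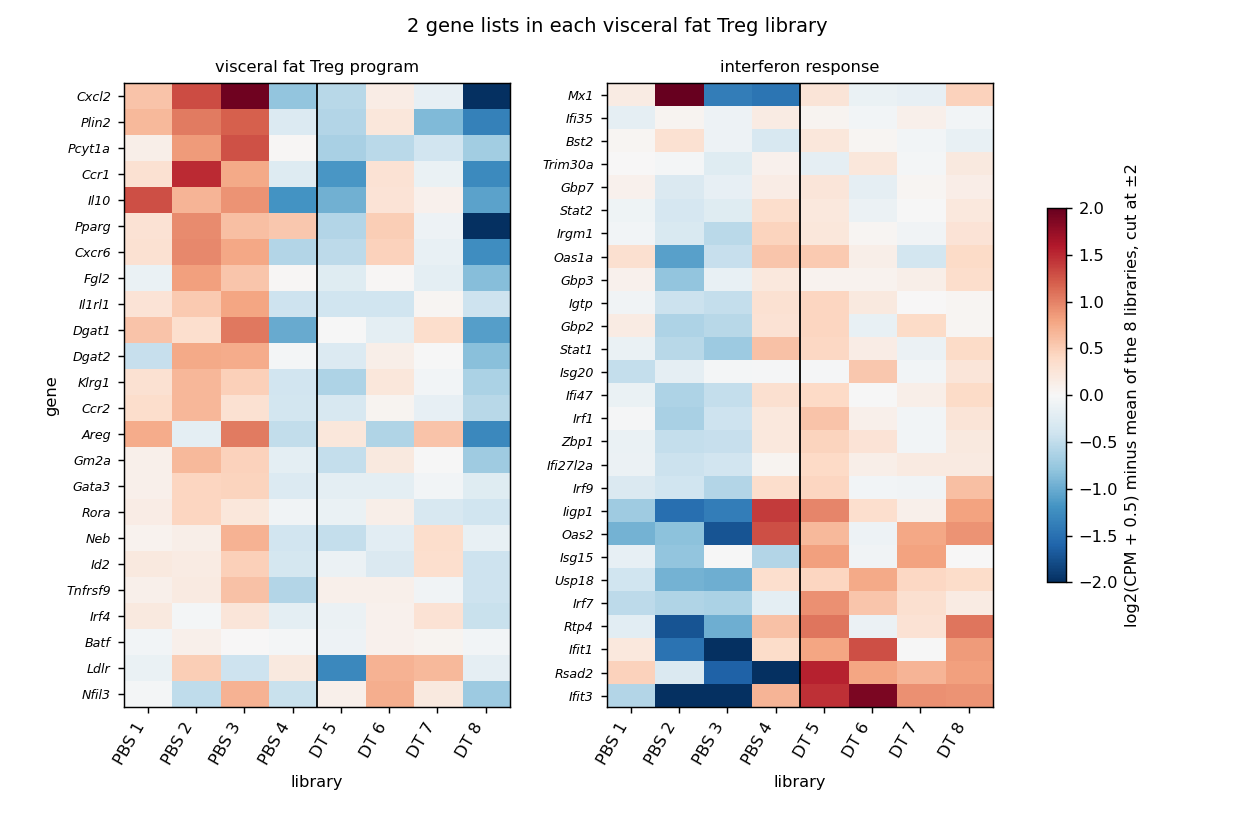
Heat maps of the 24 tested genes of the visceral fat Treg program and the 27 tested interferon-response genes (rows) in the 8 VAT libraries (columns), as log2(CPM + 0.5) minus the gene's mean over the libraries. PBS 4 and DT 8 are the lowest columns of their arms for most program genes, and PBS 4 resembles the DT columns for many interferon genes.

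Il1rl1, the IL-33 receptor, measured 922.0, 1091, 1310 and 568.5 CPM under PBS and 580.4, 579.6, 785.1 and 569.0 CPM under DT. PBS-labelled replicate 4 was the lowest of all 8 libraries, the other 3 PBS-labelled ones lay above every DT-labelled one, and the gene did not pass (log2 -0.61 ± 0.22, edgeR adjusted p = 0.4998). Klrg1, an inhibitory receptor of terminally differentiated tissue Treg cells, had 1894 ± 535 CPM under PBS and 1303 ± 391 CPM under DT (edgeR adjusted p = 0.633). Gata3, a transcription factor that supports ST2 expression, had 2000 ± 439 and 1547 ± 92.6 CPM (edgeR adjusted p = 0.603). Areg ranged from 343.9 to 999.6 CPM under PBS and from 197.7 to 723.2 CPM under DT (edgeR adjusted p = 0.842). Cd36, the fatty acid transporter, was too low to be tested, with a highest value of 12.7 CPM in DT-labelled replicate 7.

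Members of lipid handling gave the smallest p-values of the program. Pcyt1a, the rate-limiting enzyme of phosphatidylcholine synthesis, measured 251.2, 418.7, 557.4 and 235.3 CPM under PBS and 146.9, 158.9, 177.8 and 142.5 CPM under DT. The arms did not overlap and edgeR's adjusted p was 0.132 (log2 -1.20 ± 0.24), whereas DESeq2 called it with an adjusted p of 0.000105. Plin2, a protein of the lipid droplet coat, measured 505.3, 666.2, 741.3 and 266.6 CPM under PBS and 214.0, 378.7, 174.4 and 125.6 CPM under DT, with overlap through PBS-labelled replicate 4 (log2 -1.27 ± 0.34, edgeR adjusted p = 0.322).

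Broader metabolic lists differed less. Of 20 tested fatty acid oxidation genes, 17 had lower estimates and 2 had an unadjusted p under 0.05 (Acadm and Hadh, both enzymes of β-oxidation), with a median log2 fold change of -0.14. Over all genes, 5965 of 12067 had lower estimates and 4.16% had an unadjusted p under 0.05 in that direction. Of 19 tested genes of lipid uptake and storage, 3 had an unadjusted p under 0.05 in the lower and 2 in the higher direction. These stand beside 4.16% and 3.75% of all genes, and the median was -0.07. The medians were 0.01 for 22 cholesterol synthesis genes and -0.05 for 27 genes of the respiratory chain.

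The program was also followed library by library. The level of a list in a library is the median, over its genes, of the log2 CPM minus the gene's mean over the 8 libraries. For the visceral fat program it was 0.19, 0.59, 0.65 and -0.32 under PBS and -0.35, 0.12, -0.03 and -0.70 under DT. PBS-labelled replicate 4 thus lay among the DT-labelled libraries, and the arms overlapped. PBS-labelled replicate 4 was the lowest of its arm for 18 of the 24 program genes and DT-labelled replicate 8 for 21. How often these libraries were the lowest over all tested genes was not counted. Without PBS-labelled replicate 4 the list's median log2 fold change was -0.68, with 14 members at an unadjusted p under 0.05 and 1 called, and without DT-labelled replicate 8 it was -0.34 with 7 and none called. Without DT-labelled replicate 7 it was -0.61 with 12. Over all genes and both directions, the fit without PBS-labelled replicate 4 had 1246 of 12435 at an unadjusted p under 0.05 and 31 called. Without DT-labelled replicates 8 and 7 there were 829 of 12464 and 924 of 12395 at an unadjusted p under 0.05. The fewest members at an unadjusted p under 0.05 were 4, without PBS-labelled replicate 2 (median -0.37), and 5, without PBS-labelled replicate 3 (-0.39) or DT-labelled replicate 5 (-0.48).

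**Figure D3:**
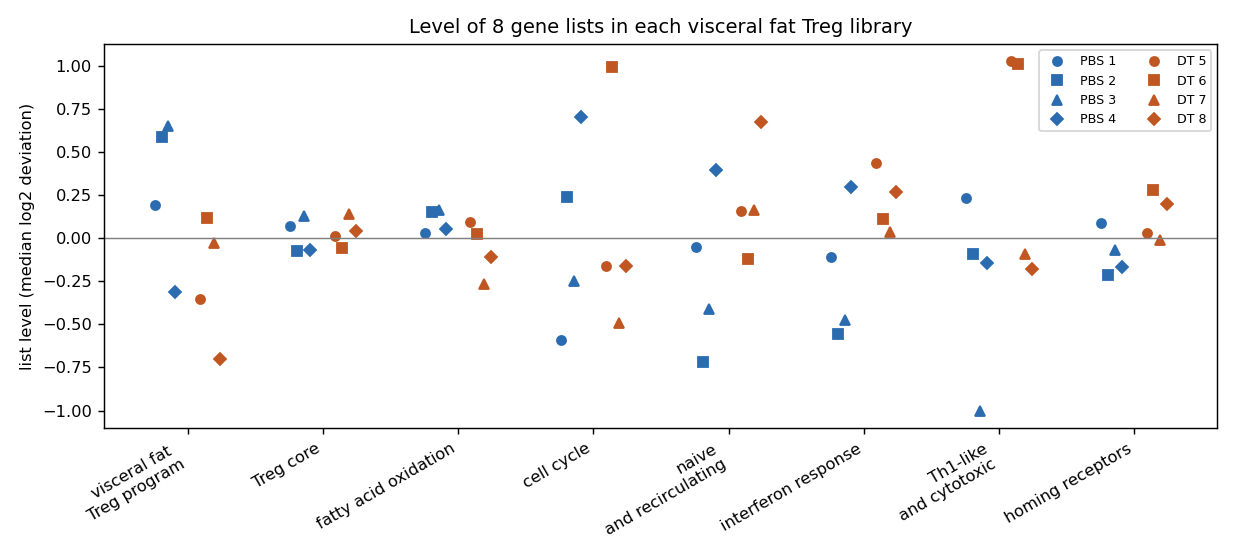
Level of 8 gene lists in each VAT Treg library (median log2 CPM deviation from the 8-library mean), with PBS-labelled libraries in blue and DT-labelled libraries in orange. The arms overlap for every list shown, and PBS 4 has a level of -0.32 for the visceral fat program, lower than the other PBS libraries.

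Genes of naive and recirculating T cells pointed the other way from the program. Of 17 tested, 15 had higher estimates under DT, beside 6102 of all 12067 tested genes. An unadjusted p under 0.05 in that direction was reached by 4, beside 3.75% of all genes, and the median log2 fold change was 0.38. The median was 0.19 without PBS-labelled replicate 2, which was the lowest of its arm for 10 of the 17, and 0.58 without PBS-labelled replicate 4, the highest of its arm for 12. DT-labelled replicate 8 was the highest of its arm for 11, and without it the median was 0.25. These ranks, too, were not counted over all tested genes. S1pr1, the receptor that lets lymphocytes leave tissues for blood and lymph, had 209.8 ± 51.3 CPM under PBS and 321.3 ± 45.4 CPM under DT (edgeR adjusted p = 0.322). Klf3 and Klf2, factors of lymphocyte quiescence and circulation, differed by log2 0.83 ± 0.24 and 0.55 ± 0.20 in favour of DT (edgeR adjusted p = 0.333 and 0.5004).

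Th1-like and cytotoxic genes had the largest median of the 21 pathway lists, 0.67 over 13 tested genes. Of these, 12 had higher estimates and 2 an unadjusted p under 0.05 in that direction, beside 6102 of 12067 and 3.75% of all genes. Some members were at low levels, and over the 10 members with a mean of at least 10 CPM the median was 0.42. Tbx21, the Th1 master factor T-bet, measured 23.2, 29.2, 34.9 and 75.5 CPM under PBS and 121.6, 122.2, 77.5 and 52.8 CPM under DT. Replicates 5 and 6 of the DT arm were the highest, replicate 8 lay below PBS-labelled replicate 4, and edgeR's adjusted p was 0.341. Ccl5, a chemokine of effector T cells, showed the same division within the DT arm, with 369.9 and 368.1 CPM in replicates 5 and 6 and 123.7 and 107.6 CPM in replicates 7 and 8 (edgeR adjusted p = 0.639). The summed level of 4 CD8 T cell markers was also highest in replicates 5 and 6, at 79.5 and 98.9 CPM against 21.5 to 40.7 CPM in the other 6 libraries, and its part in the Th1-like values was not tested. Without DT-labelled replicate 6 the median of the Th1-like list was 0.31, and without PBS-labelled replicate 1 it was 0.92.

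Foxp3, the defining Treg factor, had nearly equal means in the arms, with 381.5 ± 77.5 CPM under PBS and 380.5 ± 47.7 CPM under DT (log2 0.02 ± 0.15, edgeR adjusted p = 0.993). Il2ra, the high-affinity IL-2 receptor chain CD25, had 936.4 ± 296.8 and 669.2 ± 192.7 CPM (edgeR adjusted p = 0.691), and Ikzf2, the factor Helios, 753.5 ± 61.1 and 678.0 ± 73.9 CPM (edgeR adjusted p = 0.828). Over 23 tested Treg core genes the median log2 fold change was -0.04. An unadjusted p under 0.05 was reached by 4 in the higher and 1 in the lower direction, beside 3.75% and 4.16% of all genes. Nrp1, which marks many thymus-derived Treg cells, measured 522.8, 286.3, 419.9 and 451.6 CPM under PBS and 754.6, 577.8, 544.1 and 722.2 CPM under DT. The arms did not overlap and Nrp1 did not pass (log2 0.64 ± 0.18, edgeR adjusted p = 0.322).

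Among inhibitory receptors, Pdcd1, which encodes PD-1, measured 420.7, 536.1, 722.4 and 356.9 CPM under PBS and 247.1, 331.3, 189.5 and 203.7 CPM under DT. The arms did not overlap, and edgeR's adjusted p was 0.150 (log2 -1.05 ± 0.22), while DESeq2 called the gene with an adjusted p of 0.000503. The 21 tested genes of that list had a median of 0.06. An unadjusted p under 0.05 was reached by 3 in the lower and 1 in the higher direction, beside 4.16% and 3.75% of all genes. The cell cycle list had a median of 0.10 over 30 genes, with 0 at an unadjusted p under 0.05, and the sign of the median depended on single libraries: it was -0.37 without DT-labelled replicate 6, -0.17 without PBS-labelled replicate 1, -0.07 without PBS-labelled replicate 3 and 0.41 without PBS-labelled replicate 4. Its levels spread within arms, DT-labelled replicate 6 being the highest at 0.99 and PBS-labelled replicate 1 the lowest at -0.59. Lists of the T cell receptor response, AP-1 genes, NF-kB, IL-2 and STAT5, and tissue Treg transcription factors had medians between -0.13 and 0.07.

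Clonal make-up was looked at through the V segments of the T cell receptor, counted in each library and summarised as an effective number of segments (the inverse Simpson index). For Trbv it was 9.92, 4.62, 6.77 and 11.6 under PBS and 14.1, 4.37, 7.84 and 12.9 under DT. Both arms held a library with few and a library with many segments in use, and the difference was smaller than that spread (8.24 ± 3.14 against 9.81 ± 4.53, SD, n = 4; exact two-sided permutation p = 0.543, adjusted over 4 values 0.724). For Trav the values were 19.5 ± 6.86 and 26.7 ± 8.08 (exact permutation p = 0.257, adjusted 0.724). With 4 libraries per arm the smallest p such a test can give is 0.0286, and the segment counts per library, 1232 to 2512 for Trbv and 648 to 1267 for Trav, limit its precision.

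The same comparison was made in spleen, lung, liver and ear skin, each with 3 DT-labelled and 3 PBS-labelled libraries that may come from the same mice. Called were 0 genes in spleen, lung and liver by edgeR (358, 412 and 525 at an unadjusted p under 0.05, or 2.87%, 3.42% and 4.39%) and 52 of 12653 in ear skin (0.411%). The contrast of the VAT difference with the mean difference of the other 4 tissues called 0 of 17731 genes (0%), with 1127 at an unadjusted p under 0.05 (6.36%). By this test no gene was shown to differ between the arms in VAT beyond the other tissues. In counts simulated with known changes in the DT-labelled VAT libraries, this contrast recovered 38% of 100 genes changed 2-fold and 95% of 100 changed 4-fold. A 2-fold difference could thus be missed. The smallest adjusted p was 0.0706, for Mapkbp1 (contrast log2 -1.44 ± 0.27), which encodes a scaffold of JNK signalling, and for Frmd6 (1.58 ± 0.30), a FERM domain protein.

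**Figure D4:**
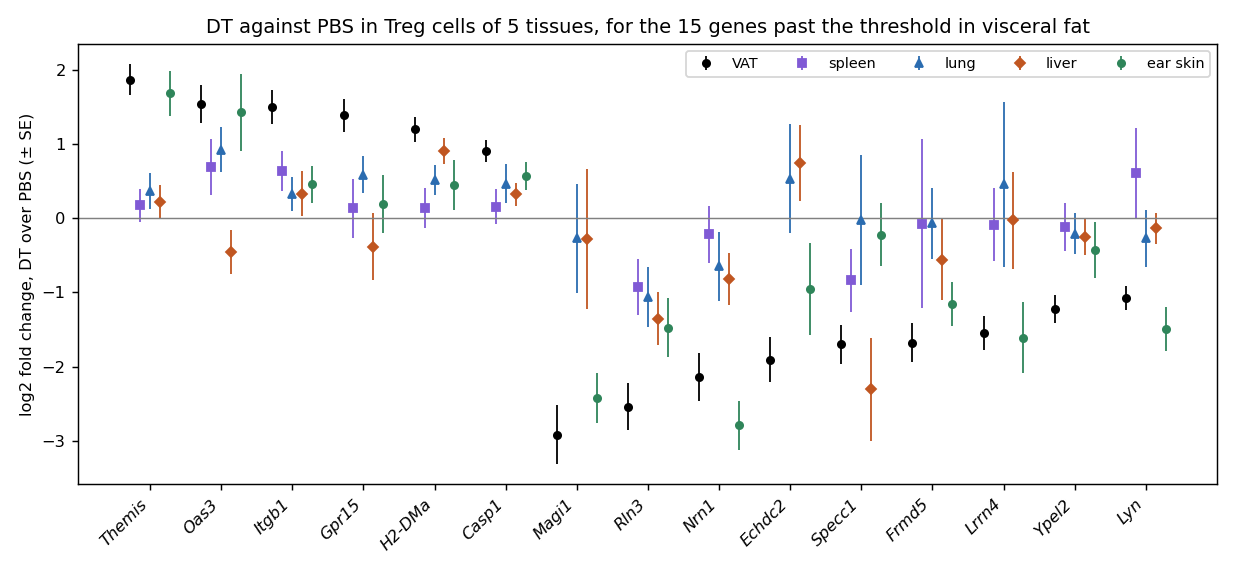
Log2 fold change of DT over PBS, with its SE, for the 15 genes past the threshold in VAT, in VAT (black, 4 libraries per arm) and in spleen, lung, liver and ear skin (3 per arm). All 15 have the same direction in ear skin as in VAT; Magi1 and Echdc2 were too low to be tested in spleen.

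The 15 genes had mostly the same direction elsewhere. It was shared by 12 of the 13 tested in spleen, 13 of 15 in lung, 12 of 15 in liver and 15 of 15 in ear skin, beside 53.1%, 46.7%, 50.4% and 52.9% of all genes tested in both tissues. In ear skin 4 were called: Themis (log2 1.68 ± 0.30, edgeR adjusted p = 0.0135), Magi1 (-2.42 ± 0.34, 0.00195), Nrn1 (-2.79 ± 0.33, 0.000532) and Lyn (-1.49 ± 0.29, 0.0263). In one fit of the 24 libraries of the 4 tissues, added after the VAT result was seen, the mean DT difference called 26 of 16403 genes (0.159%; 0.0366% lower), 2 of them among the 15: Rln3 (log2 -1.20 ± 0.22, edgeR adjusted p = 0.0128) and Nrn1 (-1.11 ± 0.20, 0.0128). Rln3 had a lower estimate in each tissue, with log2 fold changes of -0.93 in spleen, -1.06 in lung, -1.36 in liver and -1.48 in ear skin.

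Other members of the 15 were abundant mainly in VAT. Frmd5 averaged 243.0 ± 98.0 CPM in PBS-labelled VAT libraries when all 32 were scaled together, and 42.7 ± 13.7 CPM in ear skin, 12.9 ± 8.71 in liver, 10.8 ± 3.81 in lung and 2.65 ± 1.77 in spleen. Lrrn4 averaged 129.0 ± 29.1 CPM in PBS-labelled VAT libraries and 17.4 ± 6.46 or less in the other tissues. Itgb1 was different, with 596.4 ± 165.3 CPM in PBS-labelled liver and 439.1 ± 117.4 in lung libraries, both above the 137.1 ± 54.0 of VAT. Under DT it averaged 380.2 ± 51.2 CPM in VAT.

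The visceral fat program had a median log2 fold change of 0.19 in the fit of the other 4 tissues, beside -0.51 in VAT, and the interferon list 0.27 beside 0.43. In ear skin the interferon median was 0.67 and in spleen -0.20. The naive and recirculating list had a median of -0.23 in the other tissues beside 0.38 in VAT. For the Th1-like and cytotoxic list it was 0.50 in the other tissues beside 0.67 in VAT, and 0.99 in ear skin alone. These differences of list medians between tissues were not tested. Pparg itself was nearly limited to VAT, with 7.79 ± 0.51 CPM or less in PBS-labelled libraries of the other tissues, against 85.1 ± 16.6 CPM in VAT.

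Markers of other cell types were summed per library in plain CPM. Of 15 lists, 2 had arms that did not overlap, both at the smallest possible exact two-sided permutation p of 0.0286 (adjusted over the 15 lists 0.214). The mesothelial sum was 114.0 to 175.1 CPM under PBS and 35.7 to 67.2 under DT, with Lrrn4 at 106.0 to 166.9 CPM under PBS and 27.7 to 61.7 under DT; the next members were Muc16 at 0.883 to 9.71 CPM and Krt18 at 0.214 to 6.74 CPM over the 8 libraries, both highest in DT-labelled replicate 7. The part of mesothelial RNA in the Lrrn4 difference was not tested. The endothelial sum was 62.2 to 97.4 and 100.5 to 142.9 CPM, with Pecam1, which T cells also express, at 54.4 to 93.4 and 91.7 to 140.2 CPM. The other 9 endothelial markers were each at or below 4.39 CPM, and the part of endothelial RNA was not tested. The ILC2 and Th2 list, which shares Gata3, Klrg1 and Il1rl1 with VAT Treg cells, summed to 3247 to 5855 CPM under PBS and 3064 to 4028 under DT, with overlap. In such bulk libraries, fewer cells of a kind and less RNA per cell cannot be told apart.

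**Figure D5:**
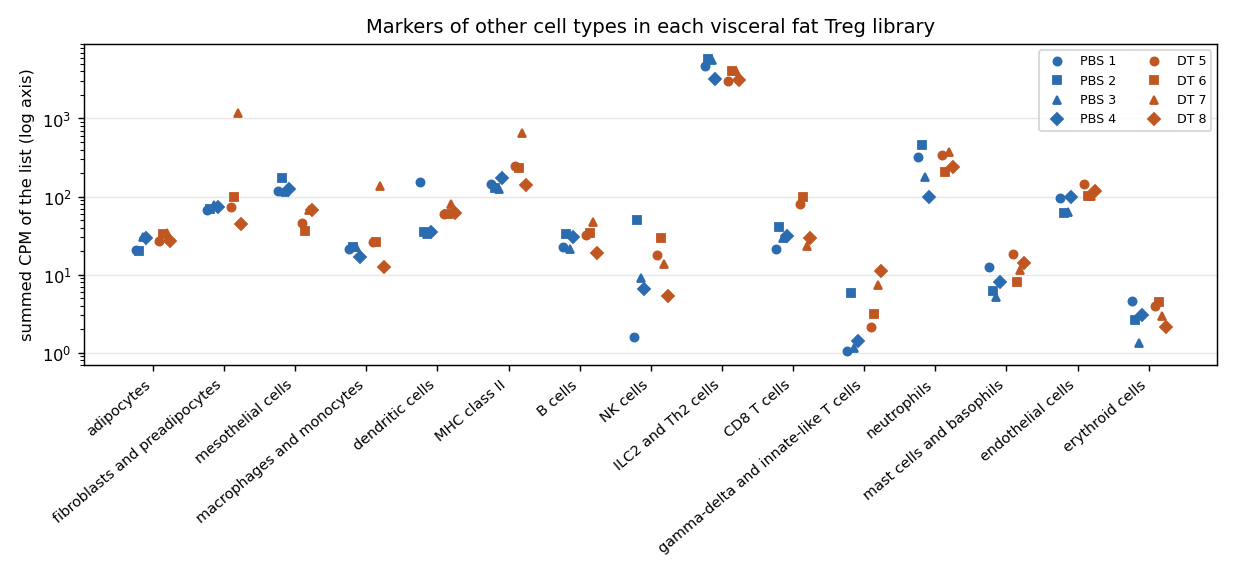
Summed CPM (log axis) of 15 lists of markers of other cell types in each VAT Treg library, with PBS-labelled libraries in blue and DT-labelled libraries in orange. DT 7 stands out for fibroblasts and preadipocytes (1180 CPM), macrophages and monocytes and MHC class II.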

How the data were processed

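The labels' protocols name sequencing of polyA RNA. Their extraction text describes another study, of muscle satellite cells, so whether it holds for these libraries is not known. Cell number and sort were taken from the series text. The authors deposited 1 table of whole read counts per gene; the submitters' processing notes name STAR 2.7.3a, featureCounts and mm10. The annotation, strand setting and treatment of shared reads were not stated there. Library depth was 3706591 to 5663805 counts in VAT. Symbols matched GENCODE M21 for 52936 of 55011. The 8 VAT libraries were fitted with edgeR 4.0.16 (R 4.3.3; TMM, filterByExpr with a minimum count of 10 and a total of 15, quasi-likelihood F test, Benjamini-Hochberg at 0.05). SE is the log2 fold change divided by the root of F. The contrast with other tissues used 32 libraries. Alternatives were DESeq2 1.42.0, limma 3.58.1 voom with quality weights, other scalings and filters, and each library left out. Marker sums and V segment values were compared by exact permutation.

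Members and lists were chosen with earlier results of these data known. Named were 9 fixed genes, called genes whose arms did not overlap and whose mean was 10 CPM or more, and up to 5 members of smallest adjusted p per described list; gene models named by number, receptor segments and sex-linked genes were left out. On simulated VAT counts edgeR, run on 12112 genes, recovered 56% of 100 genes changed 2-fold and 99% of 100 changed 4-fold, with 11 false calls. All changed genes had a mean of at least 10 CPM, so genes at lower levels were not tried. More genes were changed there than the 15 called in the data, which loosens the adjusted threshold. The shares recovered, also those given for the contrast with the other tissues, may thus be too high for the comparisons made here.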

Additional observations from a re-analysis of the deposited data

Results flagged for a closer look

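Within arms, 198 groups of 4 libraries were checked for a highest or lowest value standing far from the other 3, and 19 met the limit (the gap over the whole range, above Dixon's critical value), where chance gives about 1 in 20 groups. DT-labelled replicate 7 gave 8 of them: Il1rl1 785.1 CPM (others 569.0 to 580.4), Cd36 12.7 CPM (others up to 0.206), H2-Ab1 197.5 CPM, H2-Aa 96.6 CPM, and the marker sums of fibroblasts and preadipocytes (1180 CPM), macrophages and monocytes (138.1 CPM) and dendritic cells (80.7 CPM), beside a share of the most used Trav segment of 21.5% (others 8.20 to 9.74%). All 8 were high values.

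PBS-labelled replicate 4 was high for Oas3 (17.0 CPM) and Cd74 (95.1 CPM). PBS-labelled replicate 2 was high for Lrrn4 (169.7 CPM), Pcna (87.6 CPM) and the NK cell (50.4 CPM) and gamma-delta and innate-like T cell (5.78 CPM) marker sums, and PBS-labelled replicate 1 for the dendritic cell sum (154.5 CPM). Ccr9 alone made up 131.0 CPM of that dendritic cell sum, and Gzma alone 34.3 CPM of that NK cell sum. DT-labelled replicate 6 was high for Usp18 (16.3 CPM) and Mcm6 (452.0 CPM), DT-labelled replicate 5 for Rsad2 (12.8 CPM), and DT-labelled replicate 8 was low for Ypel2 (21.5 CPM).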

How the results depend on the processing

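All 15 genes called in VAT kept their direction in 14 alternatives, while their calls did not: leaving out 1 library gave 0 to 31 calls, with adjusted p of the 15 up to 0.210. Without a filter on low counts 347 genes were called (178 higher, 169 lower), by DESeq2 92 (29 and 63), by limma voom 7 (4 and 3), and in one fit of all 32 libraries 19, of which 8 were among the 15. The causes of these changes were not tested. Each fit without a library has fewer samples, and all of them gave fewer calls except that without PBS-labelled replicate 4, which gave 31. No paired analysis was possible because the VAT arms share no replicate numbers. For the contrast with the other tissues, 0 calls became 141 without the filter and 3 with spleen alone as reference. They became 0 to 7 without single libraries (7 without PBS-labelled replicate 4) and 1 (Mapkbp1, edgeR adjusted p = 0.0364) with a replicate block. Across tissues, libraries of the same number correlated at -0.093 to 0.112 and those of different numbers at -0.177 to 0.196. No pair known to share a mouse was available, so these values cannot tell whether equal numbers mean the same mouse. Foxp3 changed sign near 0: -0.00388 without the filter, -0.00494 in the 32-library fit, and -0.0754 to 0.147 without single libraries. Marker lists with arms apart numbered 2 to 4, the 4 without DT-labelled replicate 8. The difference in the share of the most used Trbv segment, DT minus PBS, ranged from -7.76 to 4.14 percentage points. Depth limits low genes: Ifit3 rests on 0 to 63 counts per library.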

Other observations

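DESeq2 called 92 genes in VAT, 77 beyond the 15. Genes described here were chosen after their values were seen. Pros1, which encodes the anticoagulant protein S, a ligand of TAM receptors, measured 72.5, 109.5, 84.8 and 66.7 CPM in the PBS-labelled and 48.1, 39.8, 31.6 and 38.6 CPM in the DT-labelled libraries (edgeR adjusted p = 0.0549, DESeq2 adjusted p = 0.000103). Anxa1, which encodes the pro-resolving protein annexin A1, measured 779.8, 1258, 765.0 and 593.6 CPM and 252.9, 508.1, 349.5 and 254.7 CPM (edgeR adjusted p = 0.132, DESeq2 adjusted p = 3.88e-05). For both genes every DT-labelled library was below every PBS-labelled one.

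Kcna4, a voltage-gated potassium channel, had 58.8 ± 31.5 CPM under PBS and 11.7 ± 6.50 CPM under DT (edgeR adjusted p = 0.112, DESeq2 adjusted p = 2.60e-06). Mir155hg, the host transcript of miR-155, which supports Treg cell fitness, had 61.5 ± 25.6 and 21.1 ± 5.02 CPM (edgeR adjusted p = 0.139, DESeq2 adjusted p = 0.000217). Il5, a cytokine of type 2 immunity, spread over both arms, from 12.0 to 78.1 CPM under PBS and from 0.778 to 32.2 CPM under DT (edgeR adjusted p = 0.671).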
